A study of Drosophila melanogaster with 2 samples.

Results

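The genes described here encode the translation initiation, elongation and release factors of Drosophila melanogaster. They are the 53 genes, of 13945 protein-coding genes in the Ensembl annotation, whose symbol begins with eIF, eEF or eRF and a digit. Their peaks were selected by position, as summits within 2 kb of any of a gene's transcription start sites (TSSs), and the group was proposed with the peaks already known. The count of bound genes below is therefore a description, and no test was run on it.

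Binding was measured as peaks of chromatin immunoprecipitation followed by sequencing for E(spl)mδ-HLH, a basic helix-loop-helix repressor that Notch signalling switches on. The protein carried GFP at its C-terminus in a transgenic fly line. Whole embryos of both sexes, 2 to 12 h old, were pooled for chromatin, and the tissue behind a peak was not measured. There was 1 group of 2 biological replicates, and a free-text label that calls the samples an input control conflicts with the assay and antibody labels. The samples were read as immunoprecipitated chromatin, because the deposited file listing names a further alignment as a source of each replicate and pooled list, besides those of the replicates. No list gives read counts, so the depth is unknown, and the intervals below cover counting error only.

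Translation starts when eIF2 brings the initiator tRNA to the small ribosomal subunit, which eIF1, eIF1A and eIF3 hold ready to scan for a start codon. The eIF4 proteins bind the cap of the mRNA and unwind its leader. Once the large subunit has joined, eEF1 delivers aminoacyl-tRNAs, eEF2 moves the ribosome along and the release factors end the chain at a stop codon. The demand for these proteins is high in growing cells, and their genes are transcribed in almost all tissues, apart from a few paralogs with restricted use.

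Peaks of E(spl)mδ-HLH lay near 24 of the 53 factor genes. This was 45.3% of them (exact binomial 95% interval 31.6 to 59.6), beside 16.9% of all protein-coding genes. A gene is called bound if a summit of the authors' thresholded list, which holds 2750 peaks, lies within 2 kb of one of its TSSs. The strongest were at eIF1, eEF1gamma, eIF2Bbeta and eEF1alpha1, with ranks 15, 33, 47 and 64 by the authors' signal value, an enrichment value per peak that orders peaks within a list. Across the 24 genes the signal of the strongest peak ran from 124 to 801 with a median of 203. The median over all thresholded peaks was 162, but that counts every peak and not the strongest per gene. By strongest peak per gene the median rank was 828, beside 1241 over all bound genes. The strongest peaks of 17 of the 24 were among the first 1375 of the list, as were those of 1299 of all 2354 bound genes. Since eIF2alpha and eIF4H1 share a peak, the 24 genes had 23 distinct strongest peaks, and 31 distinct peaks in all.

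**Figure D1:**
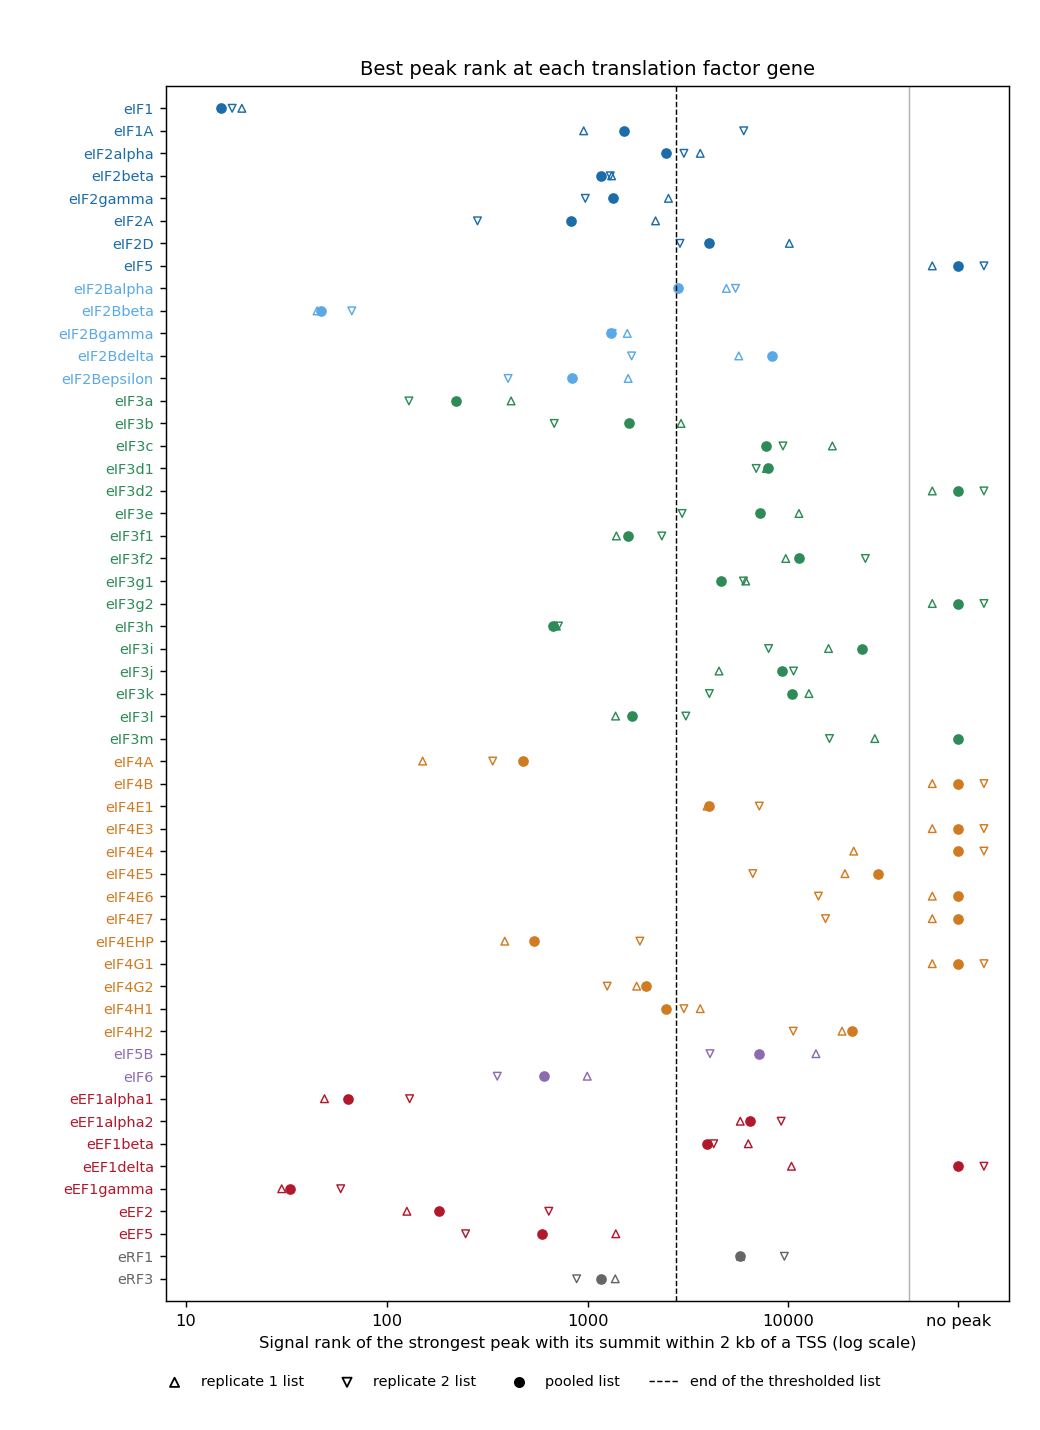
Signal rank (log scale) of the strongest peak with its summit within 2 kb of a TSS of each of the 53 factor genes, coloured by role. Filled circles are the list called on both replicates pooled, open triangles are each replicate's own list, the dashed line is the end of the thresholded list at rank 2750, and symbols at the far right mark genes with no peak in that list. The 24 bound genes lie left of the line, from rank 15 at eIF1 to rank 2449 at eIF2alpha and eIF4H1.

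By the 2 kb rule every role group held bound genes, but the groups are small, and 16.9% of all protein-coding genes were bound. Bound genes made up 6 of the 8 start codon and initiator tRNA factors, 3 of the 5 eIF2B subunits, 5 of the 16 eIF3 genes and 4 of the 13 eIF4 genes. The factors that act after subunit joining included 4 of the 7 elongation genes and 1 of the 2 release factor genes. Of eIF5B and eIF6, which act around subunit joining, eIF6 was bound. The strongest summit was nearest to the factor's own TSS at 4 of the 6 bound start codon genes and 0 of the 3 eIF2B genes. It was so at 2 of the 5 eIF3 genes, 2 of the 4 eIF4 genes and all bound elongation, release and subunit joining genes. Among members with a single annotated TSS 11 of 31 were bound (35.5%), beside 12.2% of all genes of that kind. Among those with more than 1 TSS 13 of 22 were bound (59.1%), beside 29.8%.

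Promoter stretches of 8 bound genes are shown first. They were picked because each holds 1 or more of the sequence elements described further on, so they do not stand for all bound genes. Each runs from 70 bases before the annotated TSS to 30 bases from it on, read in the direction of the gene from the Release 6 genome, which is dm6. Capitals mark matches to the DNA replication-related element (DRE) core TATCGAT, to the core GGTCACA of promoter motif 1 and to the class C E-box CACGCG, on either strand. The summit lies within the letters shown in all of them except eIF2Bepsilon, whose summit is 89 bp upstream of the TSS.
eEF1gamma (chr3R:29220102-29220201, plus strand): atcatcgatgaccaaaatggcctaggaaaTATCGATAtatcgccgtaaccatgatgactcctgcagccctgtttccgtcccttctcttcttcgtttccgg
eIF3a (chr3R:4433866-4433965, minus strand): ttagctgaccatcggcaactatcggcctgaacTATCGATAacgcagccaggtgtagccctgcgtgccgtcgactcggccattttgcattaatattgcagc
eIF3f1 (chr3R:4714153-4714252, minus strand): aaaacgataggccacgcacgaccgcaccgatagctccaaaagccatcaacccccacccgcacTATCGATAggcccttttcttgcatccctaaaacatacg
eIF2gamma (chr3R:15263429-15263528, minus strand): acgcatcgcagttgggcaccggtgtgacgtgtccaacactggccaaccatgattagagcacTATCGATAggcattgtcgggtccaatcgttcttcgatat
eIF2alpha (chrX:16446964-16447063, minus strand): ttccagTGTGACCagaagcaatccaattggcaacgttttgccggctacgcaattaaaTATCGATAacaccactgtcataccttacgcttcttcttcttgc
eIF4G2 (chr3R:23819208-23819307, minus strand): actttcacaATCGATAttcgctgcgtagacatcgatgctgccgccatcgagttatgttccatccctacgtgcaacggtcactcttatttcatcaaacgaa
eIF2Bepsilon (chrX:1922845-1922944, minus strand): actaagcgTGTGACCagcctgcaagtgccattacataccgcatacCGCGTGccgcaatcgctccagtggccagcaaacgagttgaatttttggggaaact
eIF4EHP (chr3R:24108931-24109030, minus strand): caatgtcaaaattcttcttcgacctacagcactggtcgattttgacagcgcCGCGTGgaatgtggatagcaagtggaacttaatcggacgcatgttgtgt

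The elongation factor genes held the strongest peaks that sat on a factor's own start site. eEF1gamma (FBgn0029176), a subunit of the complex that recharges eEF1alpha with GTP, had a signal of 632 (3R 29220073 to 29220269, dm6). Its summit was 6 bp downstream of the TSS, in the 5′ UTR, and the nearest TSS of another gene, Cisd2, was 3250 bp away. The overlapping peak ranked 30 in replicate 1 (signal 419) and 59 in replicate 2 (signal 206). Both replicates thus placed it among their strongest 100 peaks. A DRE palindrome, from 41 to 34 bases before the TSS, stands in capitals in the eEF1gamma stretch above.

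eEF1alpha1 (FBgn0284245), which carries aminoacyl-tRNAs to the ribosome and is among the most abundant proteins of a cell, had 4 thresholded peaks within 2 kb. The strongest (2R 11892006 to 11892202, signal 507) had its summit 10 bp upstream of an annotated TSS with ranks of 49 and 130 in the 2 replicates. The other three had signals of 172, 157 and 122, with summits 604, 1220 and 195 bp upstream of the nearest eEF1alpha1 TSS. The latter pair were closer to ERp60, at 1064 and 39 bp, and the weakest ranked 2030 in replicate 1 but 9393 in replicate 2. The paralog eEF1alpha2 was not bound, and its best peak in the pooled list ranked 6411.

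eEF2 (FBgn0000559), the translocation factor, had a peak (2L 21682070 to 21682160, signal 347, rank 182) with its summit 7 bp downstream of a TSS. Its ranks were 126 and 641 in replicates 1 and 2. eEF5 (FBgn0285952), the hypusine-bearing factor known in other species as eIF5A, had a peak with signal 229.7 and rank 592. Its summit lay 22 bp upstream of the TSS, with ranks 1382 in replicate 1 and 247 in replicate 2, so the order of the replicates was opposite to that at eEF2. The exchange factor subunit eEF1beta was not bound but had a pooled peak 43 bp from its TSS at rank 3919, and ranked 6309 and 4246 in replicates 1 and 2. eEF1delta, the remaining subunit, had no peak within 2 kb in the pooled list and none in replicate 2, and its best in replicate 1 ranked 10352.

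Among the start codon factors the peak with the highest signal belonged to eIF1, though it was nearer to a neighbour. eIF1 (FBgn0035423) keeps scanning ribosomes from stopping at wrong codons. Its peak (3L 3222900 to 3223100, signal 801) ranked 19 in replicate 1 (signal 498) and 17 in replicate 2 (signal 304). The summit was 349 bp upstream of eIF1 and 32 bp from the TSS of RpL28, a ribosomal protein gene read from the other strand. The peak cannot be assigned to either gene by position alone, and the shorter distance is to RpL28.

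All 3 subunits of eIF2, the carrier of the initiator tRNA, were bound, with modest signals. eIF2beta had a signal of 174 and rank 1163, with its summit 278 bp upstream and ranks of 1317 and 1297 in replicates 1 and 2. The replicates placed that peak almost equally. eIF2gamma had a signal of 164 and rank 1333, its summit 57 bp upstream of its TSS and 37 bp from that of Set, which starts 94 bp away on the other strand. Replicate 1 placed it at rank 2527 and replicate 2 at rank 974.

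eIF2alpha (FBgn0261609), the subunit that stress kinases phosphorylate to slow translation, had the weakest peak of the bound genes (X 16446904 to 16447153, signal 124, rank 2449). Its summit was 36 bp upstream of the eIF2alpha TSS, and the peak ranked 3637 in replicate 1 and 3398 in replicate 2. Neither replicate alone placed it among its first 2750. The same peak is the only one of eIF4H1, a helicase cofactor whose nearest TSS was 1636 bp from the summit. In replicate 2 a stronger peak, at rank 3016, lay 28 bp upstream of eIF4H1 itself.

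eIF2A (FBgn0037135), a separate protein from eIF2alpha that can also bring initiator tRNA, had a signal of 203 and rank 824, with ranks 2179 and 283 in replicates 1 and 2. eIF1A, the partner of eIF1 in scanning, had a signal of 155 with its summit 503 bp inside the gene, in an intron. It ranked 956 in replicate 1 but 5989 in replicate 2, outside that list's first 2750. Of the unbound genes in this group, eIF2D had a pooled peak at rank 4000, and eIF5, which triggers GTP hydrolysis by eIF2, had no peak within 2 kb in any list.

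The eIF2B complex, which recharges eIF2 with GTP, had 3 bound subunits, and in all of them another gene was closer. eIF2Bbeta had a signal of 558 and rank 47 (X 2703810 to 2703958), with ranks of 45 and 67 in the replicates. The summit was 677 bp upstream of eIF2Bbeta and 42 bp from Ugalt, a UDP-galactose transporter gene on the other strand. eIF2Bepsilon, the catalytic subunit, had a signal of 202 and rank 832, with its summit 89 bp upstream and 18 bp from Ocrl. eIF2Bgamma had a signal of 166 and rank 1303, with its summit 1279 bp upstream and 19 bp from CG8187.

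eIF2Balpha marked the other side of the threshold. Its pooled peak, 59 bp upstream of the TSS, had rank 2805 and signal 115, while the last thresholded peak had a signal of 117 and the weakest bound member 124. In the replicates its best peaks ranked 4909 and 5450. eIF2Bdelta was unbound at pooled rank 8241, although a peak 53 bp upstream of its TSS ranked 1656 in replicate 2. As to the distance limit, the bound genes farthest from their summit were eIF4A at 1642 bp and eIF4H1 at 1636 bp, and the nearest thresholded summit outside the window was 3504 bp from eIF2D.

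The eIF3 complex, the large scaffold on the small subunit, was bound at 5 of its 16 genes. eIF3a (FBgn0037249), its largest core subunit, had a signal of 325 and rank 222 (3R 4433882 to 4433952), ranking 416 in replicate 1 and 129 in replicate 2. The summit was 40 bp from eIF3a and 30 bp from CG1074, which starts 70 bp away in the other direction. eIF3h followed with a signal of 222 and rank 672, and ranked 699 and 716 in the replicates. Its summit stood between the starts of eIF3h, at 30 bp, and senju, at 33 bp.

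The other bound subunits had weaker peaks. eIF3f1 had a signal of 152 with its summit 22 bp upstream, and no other gene started within 8058 bp. eIF3b, a core subunit, had 2 peaks. The stronger (signal 151) lay 630 bp upstream and 66 bp from Patronin, and the weaker (signal 132) was 53 bp inside eIF3b. eIF3l had a signal of 148 with the summit 433 bp upstream and 11 bp from Nrx-IV, a septate junction gene.

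The 11 unbound eIF3 genes were eIF3c, eIF3d1, eIF3d2, eIF3e, eIF3f2, eIF3g1, eIF3g2, eIF3i, eIF3j, eIF3k and eIF3m. The best placed of them in the pooled list was eIF3g1 at rank 4589, with its summit 1415 bp from the TSS. eIF3e reached rank 2956 in replicate 2, 745 bp from the TSS, and 11278 in replicate 1, at another site 184 bp from it. Of the paralog pairs, eIF3f1 was bound and eIF3f2 was not (pooled rank 11308). Neither eIF3d1 (pooled rank 7948) nor eIF3d2 (no peak in any list) was bound, and the same held for eIF3g1 and eIF3g2, the latter also without a peak in any list.

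In the eIF4 group, which recognises the cap, bound genes were eIF4A, eIF4EHP, eIF4G2 and eIF4H1. eIF4A (FBgn0001942), the RNA helicase, had 4 thresholded peaks. The strongest (2L 5979997 to 5980246, signal 251, rank 478) was 1642 bp upstream and 21 bp from a TSS of chic, the profilin gene on the other strand. It ranked 151 in replicate 1 (signal 232) and 21377 in replicate 2 (signal 23.2), the widest gap between replicates among the 24 genes.

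The peak closest to eIF4A itself was 61 bp upstream of a TSS, with a signal of 155 and rank 1526. It ranked 1666 in replicate 1 and 1136 in replicate 2, so this weaker peak was placed alike by both. The other 2 peaks of eIF4A ranked 917 and 2599, with summits 795 and 282 bp upstream. The former was nearer to chic, at 49 bp, and ranked 2635 in replicate 1 and 337 in replicate 2.

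eIF4EHP (FBgn0053100), a cap-binding protein that cannot recruit eIF4G and so represses translation of chosen mRNAs in the early embryo, had a signal of 237 and rank 544 (3R 24108876 to 24109125). Its summit was 41 bp upstream of the TSS, and the peak ranked 387 in replicate 1 and 1821 in replicate 2. eIF4G2, a scaffold paralog required in the Drosophila testis, had a signal of 138 and rank 1963, with ranks 1755 and 1252. Its summit was 6 bp from a start site that is also annotated for CG33111.

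The cap-binding eIF4E proteins themselves were not bound. eIF4E1, the general cap-binding factor, had a pooled peak 3 bp from a TSS at rank 4033. Its best peak in replicate 1 ranked 3934 but lay 635 bp from a TSS, and that in replicate 2 ranked 7160, at 14 bp. Its paralogs eIF4E3, eIF4E4, eIF4E6 and eIF4E7 had no pooled peak within 2 kb, and that of eIF4E5 ranked 27823. eIF4B, a helicase cofactor, and eIF4G1, the main scaffold, had no peak in any list. eIF4G1 lies on chromosome 4, and the nearest thresholded summit to it was 29648 bp away. For eIF4B, on 3L, that distance was 4762808 bp, so the whole region around it held no thresholded peak. eIF4H2 had a pooled rank of 20675.

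Of the remaining factors, eIF6, which keeps large subunits from joining too early, had a signal of 229 and rank 609. Its summit was 78 bp upstream of the TSS, and its ranks were 996 and 355 in replicates 1 and 2. eIF5B, the GTPase of subunit joining, was unbound with a pooled rank of 7121. eRF3 (FBgn0020443), the GTPase of termination, had 2 peaks, with signals of 174 and 146 and summits 39 and 242 bp upstream of a TSS. The stronger ranked 1373 and 882 in the replicates. eRF1, which reads the stop codon, was unbound, with its best pooled peak 737 bp from a TSS at rank 5766.

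Over all 53 genes, 42 (79.2%) had some pooled peak within 2 kb, beside 70.1% of all protein-coding genes, since the pooled list of 30000 peaks includes background. The 29 unbound genes comprised 18 with such a weak peak and 11 without, and 6 of the 11 were eIF4 genes. There were 6 genes with no peak within 2 kb in any list, namely eIF5, eIF3d2, eIF3g2, eIF4B, eIF4E3 and eIF4G1.

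Every strongest peak of the 24 genes had an overlapping peak in both replicate lists, with summits shifted by at most 90 bp in replicate 1 and 87 bp in replicate 2. For 18 of the 24 that partner was among the first 2750 peaks of both replicates. For 3 it was so in replicate 1 alone (eIF1A, eIF3l and eIF4A), for 1 in replicate 2 alone (eIF3b), and for 2 in neither (eIF2alpha and eIF4H1). A partner was likely for any thresholded peak, since the peaks were called on the same replicates pooled and each replicate list holds 30000 peaks. At eIF4A the partner in replicate 2 ranked 21377. The shares with partners over all 2750 thresholded peaks were not computed, so these counts do not set the factor genes apart. With 2 replicates no interval can be given for a rank. The partner ranked better in replicate 1 for 10 genes and in replicate 2 for 14, and its median rank was 1345 in replicate 1 and 799 in replicate 2.

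**Figure D2:**
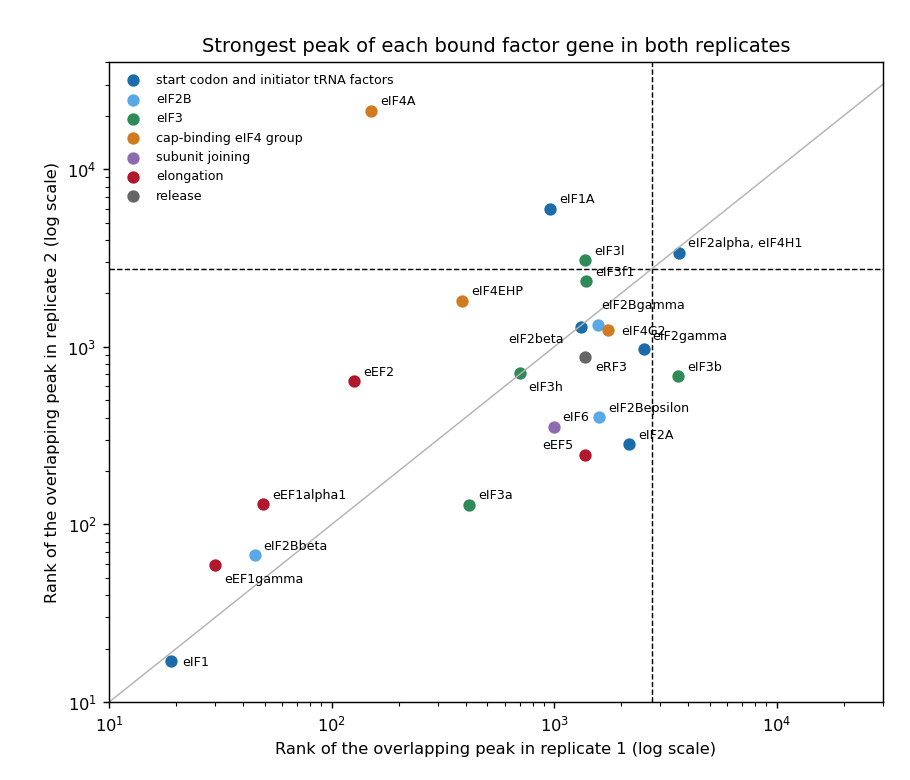
Rank of the overlapping peak in replicate 1 against replicate 2 (both log scales) for the 23 distinct strongest peaks, coloured by role. Dashed lines mark rank 2750 and the grey line equal ranks. eIF1, eEF1gamma and eIF2Bbeta sit in the lower left corner in both replicates, and eIF4A stands apart with ranks of 151 and 21377.

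Counted in each replicate alone, from as many of its strongest peaks, 21 factor genes were bound in replicate 1, where 16.5% of all genes were, and 21 in replicate 2, where 17.0% of all genes were. Replicate 1 alone lost eIF2alpha, eIF3b and eIF4H1. Replicate 2 alone lost eIF1A, eIF2alpha, eIF3l and eIF4H1 and gained eIF2Bdelta. eIF4A stayed bound in replicate 2 through another peak.

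The summits lay close to start sites, but often to those of neighbours. The strongest summit was within 100 bp of the factor's own TSS for 15 of the 24 genes, and the median distance was 56.5 bp. For 10 of the 24 a start site of another gene was nearer, and the peaks of eIF1, eIF2Bbeta, eIF2Bgamma, eIF3b, eIF3l, eIF4A and eIF4H1 were over 300 bp from the factor. A head-to-head neighbour that starts within 1 kb on the other strand was found at 15 of the 24 bound genes (62.5%) and 12 of the 29 unbound genes (41.4%). The same held for 49.2% of all bound genes and 36.2% of all protein-coding genes. A gene counted if any of its TSSs had such a neighbour, so genes with more TSSs had more chances. These shares were not split by number of TSSs.

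**Figure D3:**
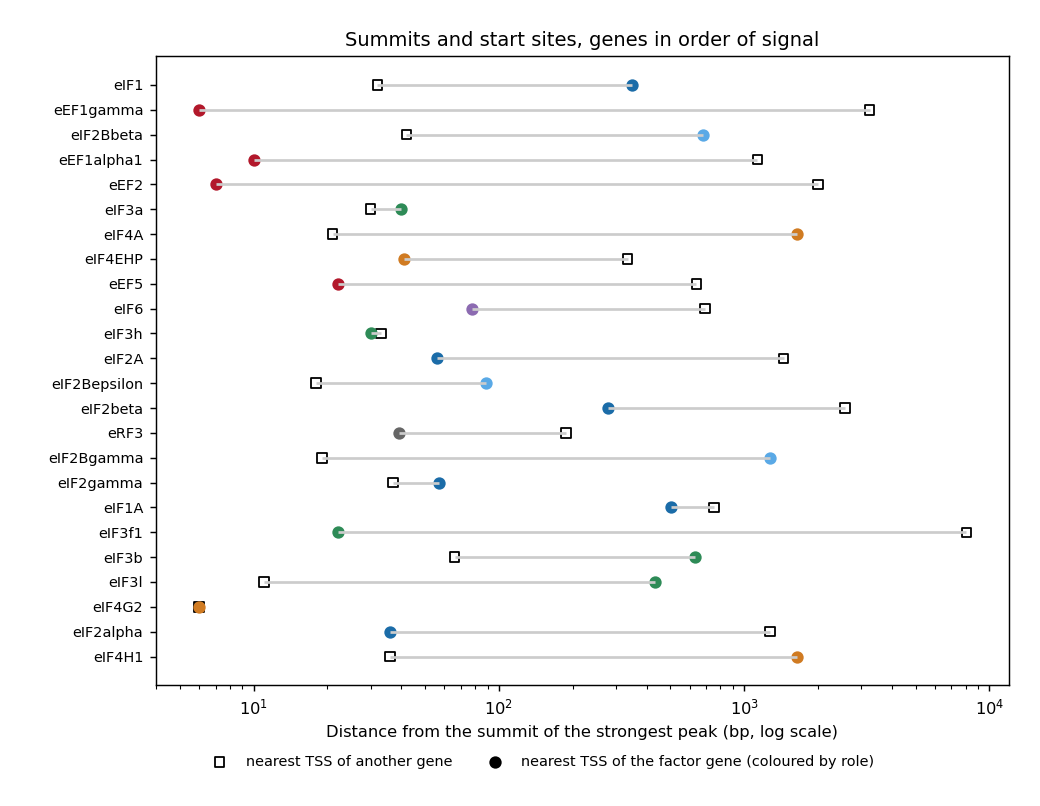
Distance (bp, log scale) from the summit of the strongest peak to the nearest TSS of the factor gene (filled, coloured by role) and to the nearest TSS of any other protein-coding gene (open squares), for the 24 bound genes in order of signal. At eEF1gamma, eEF1alpha1 and eEF2 the factor's own TSS is 6, 10 and 7 bp away and other genes are over 1 kb off, whereas at eIF1 and eIF2Bbeta the neighbour is closer.

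The share of bound genes was lower under stricter rules of distance or assignment. Within 500 bp of a TSS 20 of the 53 genes were bound (37.7%, beside 12.0% of all genes), and within 1 kb 22 were (41.5%, beside 14.0%). When a summit counted only for the gene with the nearest TSS, 16 were bound (30.2%, beside 11.6%). The 8 genes lost in that way were eIF1, eIF2Bbeta, eIF2Bepsilon, eIF2Bgamma, eIF2gamma, eIF3a, eIF3l and eIF4H1. In the strongest 1375 thresholded peaks 17 were bound (32.1%, beside 9.32%).

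Short motifs at the summits of factor genes are given beside their share in the whole list. The DRE core TATCGAT, recognised by DREF, a factor found at promoters of many growth and replication genes, lay within 50 bp of 7 of the 23 distinct strongest summits (30.4%, exact binomial 95% interval 13.2 to 52.9). It was found at 3.89% of all 2750 thresholded summits and at 6.63% of the 1524 summits within 500 bp of a protein-coding TSS, a comparison added after the data were seen. The genes were eIF2alpha, eIF2gamma, eIF2A, eIF2Bgamma, eIF3a, eIF3f1 and eEF1gamma. The eIF2Bgamma summit was 1279 bp from eIF2Bgamma and 19 bp from CG8187, so that match lies at the neighbour's start. Those of eIF2gamma and eIF3a were also nearer to another gene, but within 100 bp of their own TSS. The motif 1 core GGTCACA, recognised by M1BP, a factor of constitutive promoters, lay at 5 of the 23 (21.7%, interval 7.46 to 43.7), beside 4.29% of all summits and 6.89% of promoter summits. These 5 were eIF2alpha, eIF2A, eIF2Bepsilon, eIF3l and eEF1alpha1. The eIF3l summit was 433 bp from eIF3l and 11 bp from Nrx-IV, and that of eIF2Bepsilon was 89 bp from its TSS and 18 bp from Ocrl. A match is a run of letters and does not show a factor bound there.

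Sites linked to E(spl) proteins and other basic helix-loop-helix factors were at few of these summits, and their shares rest on 0 to 4 of them. The class C E-box CACGCG was at 2 of the 23 (8.70%, eIF4EHP and eRF3), level with the 8.47% of all summits. The N-box CACNAG was at 1 (4.35%, eIF3b), beside 17.1%, and the GAGA repeat GAGAGAG at 1 (4.35%, eIF4A), beside 9.24%. The interval of both, 0.11 to 21.9, holds the shares of all summits. The eIF3b summit was 66 bp from Patronin and the eIF4A summit 21 bp from chic, both nearer than the factor gene. As given below, the N-box was at 4 within 100 bp (17.4%, beside 29.5%). It was in 37.5% of bound factor promoters, beside 46.0% of all bound genes and 36.3% of all genes. The class B E-box CACGTG (3.35% of all summits) and the TATA box TATAAA (3.56%) were at 0 of the 23, where the upper limit of the exact interval is 14.8%. Mean GC content was 49.8% (SD 5.68, n = 23) in these windows and 51.2% (SD 6.56, n = 2750) in all. No test was run on these shares, because the summits were chosen with earlier results known.

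The counts moved with the width of the window. Within 100 bp the N-box was at 4 of the 23 summits (17.4%), beside 29.5% of all summits, and the class C E-box also at 4 (17.4%), beside 13.3%. The N-box genes were then eIF2beta, eIF3a, eIF3b and eIF6. The class B E-box was at 1 (4.35%, eEF2, beside 5.75%), and the GAGA repeat and the TATA box were at 2 each (8.70%, beside 17.5% and 9.67%). The DRE core was at 11 of the 23 (47.8%, interval 26.8 to 69.4), beside 7.42% of all summits, with eIF1, eIF4G2, eIF6 and eEF2 added. Of these, the eIF1 summit was 349 bp from eIF1 and 32 bp from RpL28. The motif 1 core stayed at 5, beside 7.13%.

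**Figure D4:**
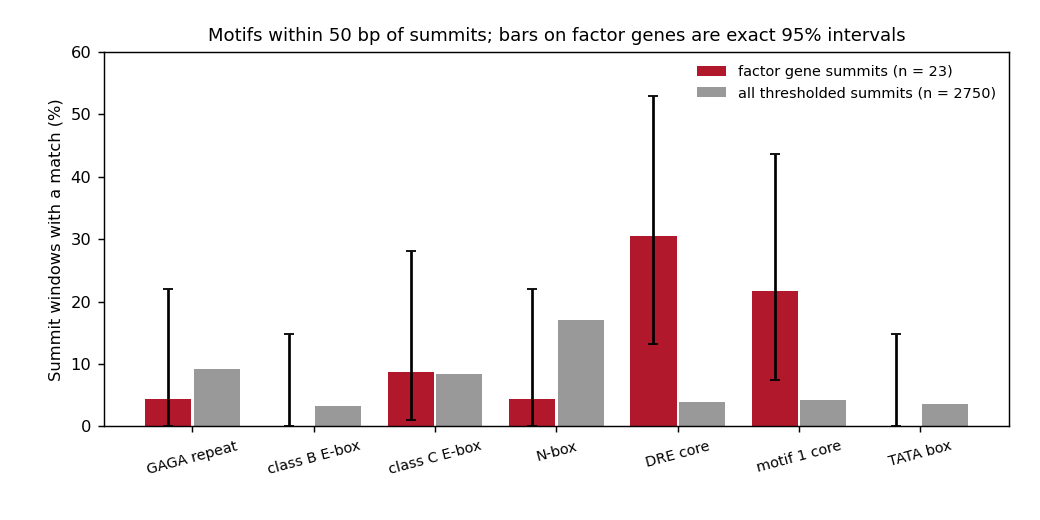
Share of windows of 50 bp to either side of the summit that hold each motif on either strand, for the 23 distinct strongest summits of factor genes (red, with exact binomial 95% intervals) and all 2750 thresholded summits (grey). The DRE core is at 30.4% against 3.89% and the motif 1 core at 21.7% against 4.29%. The N-box is at 1 of 23 (4.35%, interval 0.11 to 21.9) against 17.1%. In windows of 100 bp, which are not drawn, it is at 4 of 23 (17.4%, interval 4.95 to 38.8) against 29.5%. Both N-box intervals hold the share of all summits.

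The DRE core was also common in promoters of the unbound factor genes. In 300 bases around each TSS, 250 before and 50 from it on, it occurred at 16 of the 24 bound genes (66.7%) and 12 of the 29 unbound genes (41.4%). The share was 27.4% over all bound genes, 20.2% over all protein-coding genes and 40.2% over the 92 ribosomal protein genes. In the same promoters the N-box was at 37.5% of the 24 bound factor genes, beside 46.0% of all bound genes and 36.3% of all genes. The class C E-box was at 20.8%, beside 16.5% of all bound genes and 9.15% of all genes, and the class B E-box at 16.7%, beside 8.20% and 5.30%. A match at any TSS of a gene counted, so genes with more TSSs had more chances. None of these promoter shares was split by number of TSSs. The stretches of 4 unbound genes, picked for holding a DRE core, are shown for comparison, from 70 bases before the most upstream TSS to 30 bases from it on, with the same marking. None of the 4 has a thresholded summit within 2 kb.
eIF2Balpha (chr3R:29935859-29935958, minus strand): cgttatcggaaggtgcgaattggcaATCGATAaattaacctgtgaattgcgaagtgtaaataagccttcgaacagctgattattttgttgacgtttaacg
eIF5 (chrX:15991945-15992044, minus strand): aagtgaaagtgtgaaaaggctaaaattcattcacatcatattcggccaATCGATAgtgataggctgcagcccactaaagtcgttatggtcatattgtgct
eIF4E1 (chr3L:9402431-9402530, minus strand): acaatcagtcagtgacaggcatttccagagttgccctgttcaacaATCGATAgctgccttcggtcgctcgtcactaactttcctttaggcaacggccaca
eEF1delta (chr2L:10232437-10232536, plus strand): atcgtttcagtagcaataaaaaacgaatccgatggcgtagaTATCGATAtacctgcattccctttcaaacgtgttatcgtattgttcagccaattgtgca

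The pyrimidine-rich TCT start site, which replaces the usual initiator at ribosomal protein genes and some other genes of the translation machinery, was searched as TCTTT on the coding strand within 20 bases of a TSS. It occurred at 16 of the 53 factor genes (30.2%), namely 6 of the 24 bound and 10 of the 29 unbound genes. All protein-coding genes had it in 7.04% of cases and ribosomal protein genes in 72.8%. A gene counted if any of its TSSs had the letters, and these shares were not split by number of TSSs. Bound genes with the letters were eIF3l, eIF4A, eIF4H1, eEF1alpha1, eEF2 and eEF5.

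By share of bound genes, the factor genes (45.3%, interval 31.6 to 59.6) stood between ribosomal protein genes and cytosolic tRNA synthetase genes. Their interval overlapped those of the small-subunit genes and the cytosolic synthetase genes. Regulators of translation, described at the end, stood at 52.4%. Large-subunit ribosomal protein genes were bound in 43 of 54 cases (79.6%, interval 66.5 to 89.4) and small-subunit ones in 26 of 38 (68.4%, interval 51.3 to 82.5). Their strongest peaks were at RpL13A (signal 992) and RpS27 (signal 1304). The median rank of the strongest peak per bound gene was 217 and 127.5 in these lists, 828 in the factor genes and 1241 over all bound genes. Of 20 cytosolic aminoacyl-tRNA synthetase genes, which load tRNAs, 2 were bound (interval 1.23% to 31.7%), AlaRS (rank 1981) and AspRS (rank 2554), both over 1 kb from the summit. Of the 9 mitochondrial translation factor genes and 15 mitochondrial synthetase genes 0 were bound, with upper limits of the exact interval of 33.6% and 21.8%. When a summit counted only for the gene with the nearest TSS, 16 of the 53 factor genes were bound. The counts were then 39 of 54 large-subunit genes, 24 of 38 small-subunit genes and 0 of 20 cytosolic synthetase genes, beside 11.6% of all genes. The lists also share peaks, as the eIF1 peak (rank 15) is the peak of RpL28. These shares are descriptions of lists picked with results in view.

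**Figure D5:**
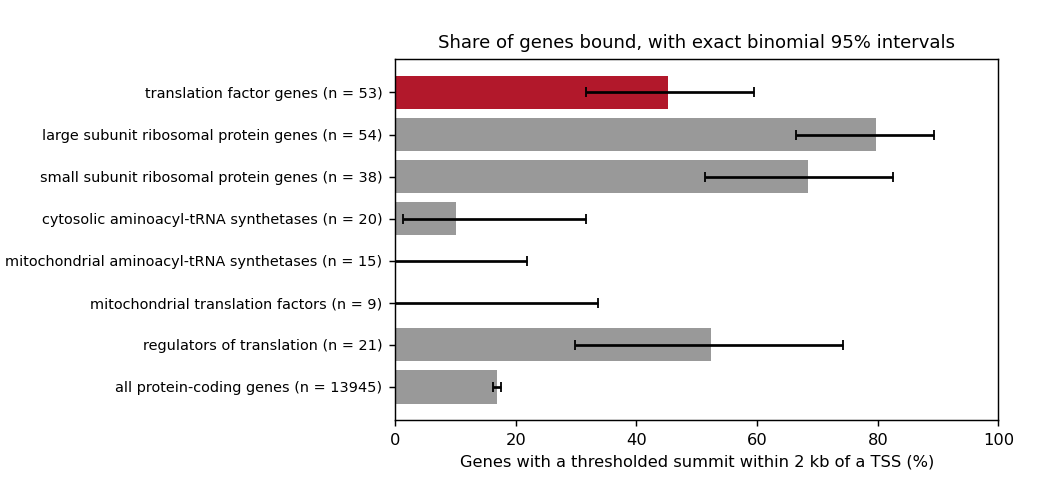
Share of genes with a thresholded summit within 2 kb of a TSS (%), with exact binomial 95% intervals, for the translation factor genes (red), related gene lists and all protein-coding genes (grey). The factor genes stand at 45.3%, large-subunit ribosomal protein genes at 79.6% and regulators of translation at 52.4%. Cytosolic synthetases lie lower, with 2 of 20 bound, and all genes stand at 16.9%.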

How the data were processed

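The deposited data were 4 peak lists in narrowPeak layout on dm6, per the deposited file listing: 1 per replicate, 1 called on both replicates pooled (30000 peaks each) and 1 thresholded by irreproducible discovery rate (2750 peaks, the first 2750 of the pooled list). Neither the caller nor its version nor the threshold is stated in the labels or files. The signal score of each peak is the authors' own, and it served for ranking inside each list. The −log10 q value, as deposited, was at its ceiling of 3.61 for 2029 thresholded peaks and was not used to rank. The summit offset is another deposited column, in bp from the peak start.

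TSSs came from Ensembl release 115 (BDGP6) and sequence from NCBI Release 6. The match of both was checked at start codons, where 16193 of 16213 are ATG. Coordinates are 1-based. All 53 genes are described, and roles follow textbook knowledge. The members, lists and motifs were chosen with earlier results of these data known. Shares carry exact binomial 95% intervals, and no tests were run. The assignment of summits to genes was tested on simulated data. Of the listed regulators, 1 symbol was not matched. Alternatives were the distance limit, nearest-TSS assignment, the stronger part of the list, each replicate alone, the rule for partners and the motif window. Python 3.11.15, numpy 2.4.6, scipy 1.17.1, pandas 2.3.3 and matplotlib 3.10.9 were used.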

Additional observations from a re-analysis of the deposited data

How the results depend on the processing

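The share of bound factor genes was 45.3% and moved outside its interval under 1 alternative, assignment to the nearest TSS only, which gave 30.2%. Under the others it ran from 32.1% to 41.5%, with 39.6% in either replicate alone. The median rank of the strongest peaks was 828, and 641 or 996 with a replicate left out. It was 592 in the stronger part of the list, where weak peaks are left out by construction. Assignment to the nearest TSS only gave 993.5, with the peaks of eIF1 (rank 15) and eIF2Bbeta (rank 47) no longer counted. Partners in both replicates fell from 24 to 18 genes when only their strongest peaks counted. Several motif shares moved with windows of 100 bp, from 4.35% to 17.4% for the N-box, 8.70% to 17.4% for the class C E-box, 4.35% to 8.70% for the GAGA repeat and 30.4% to 47.8% for the DRE core. The TATA box and class B E-box went from 0 to 2 and 1 summits. The motif 1 core stayed at 21.7%. Wider windows hold more matches by construction. Only 2 replicates and no read depth limit every rank. No paired analysis was possible because there is 1 group.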

Other observations

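Several genes on a list of regulators of translation also had peaks. Of 21 regulators of translation 11 were bound (52.4%, exact binomial 95% interval 29.8 to 74.3), beside 16.9% of all protein-coding genes. The median rank of their strongest peaks was 1475, a weaker place than the 1241 over all bound genes. When a summit counted only for the gene with the nearest TSS, 9 of the 21 were bound, beside 11.6% of all genes. The genes with the highest signals are named first. Rack1, a ribosome-associated scaffold, had a signal of 561 and rank 46, with its summit 3 bp from the TSS. Thor, the eIF4E-binding protein that blocks cap-dependent initiation, had a signal of 479.6 and rank 81, with its summit 36 bp upstream. Lk6, a kinase of eIF4E, had a signal of 379.8 and rank 144, with its summit 3 bp from a TSS. Both kinases of eIF2alpha in the list were bound, Gcn2 (signal 214) and PEK (signal 133). The others were pAbp, 4E-T, brat, nanos, pum and Fmr1, and cup, Paip2, S6k, mTor, raptor, pix, NAT1, DENR, MCTS1 and bru1 were not bound. eIF4E1, the target of Thor and Lk6, had no thresholded summit within 2 kb.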
